A study of Mus musculus with 68 samples.

Results

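The 10 genes described here encode fibrillar collagen chains and proteins secreted or handled with them: Col1a1, Col1a2, Col3a1, Col5a1 and Col5a2 (fibrillar collagens), Col6a3 (a chain of the beaded filament collagen VI), Serpinh1 (the collagen chaperone HSP47) and the glycoproteins Ccn4, Fn1 and Spp1. They were picked by name out of 55335 gene rows in each of 3 count tables of mouse embryonic stem cells (ESCs). The list was put together with results of these experiments known, and which comparison was used is not recorded. The members' values, differences and calls are therefore a description and no test of the list. Shares of all genes beside the member counts give the scale only.

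The cells were E14JU, a male ESC line of 129/Ola background, grown untreated in serum and LIF on gelatin, and total RNA was sequenced after removal of ribosomal RNA. MCM2-2A cells carry a mutated histone-binding region in MCM2, a subunit of the replicative helicase, and in MCM2-R#2 the mutation of MCM2-2A#2 had been reverted (the labels give these libraries the genotype wildtype). POLE4-KO cells lack a subunit of DNA polymerase epsilon. The POLE4 experiment held WT#1, POLE4-KO#1, POLE4-KO#2 and POLE4-KO#3 with 3 libraries each, the rescue experiment WT#1, MCM2-2A#2 and MCM2-R#2 with 4 cultures each, and the clone experiment 39 libraries of 7 WT clones and 8 MCM2-2A clones, summed here into 17 clone-by-batch units. Each numbered line is a single clone, so replicates of a line measure the spread of that clone and not of its genotype.

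As background, fibrillar collagen chains are made as procollagens in the endoplasmic reticulum, where prolyl and lysyl hydroxylases modify them and HSP47 holds the folded triple helix until it leaves in enlarged COPII carriers. Outside the cell the propeptides are clipped, type V collagen helps to start new type I fibrils, fibronectin gives them a scaffold and lysyl oxidases link them. High output of collagens I, III and V is known from fibroblasts and other mesenchymal cells, while undifferentiated ESCs are better known for fibronectin and for basement membrane proteins.

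The members lie on 7 chromosomes of GRCm38 (GENCODE vM21). On chromosome 1 are 4 of them, where Col3a1 (1:45311538-45349706, plus strand) and Col5a2 (1:45374321-45503282, minus strand) are neighbours with 24.6 kb between them, and where Fn1 (1:71585520-71653200) and Col6a3 (1:90765923-90843971) also lie. Col1a1 is at 11:94936224-94953042, Col1a2 at 6:4504814-4541544, Col5a1 at 2:27886425-28039514, Serpinh1 at 7:99345376-99353239, Ccn4 at 15:66891320-66923201 and Spp1 at 5:104435118-104441050. Inside Spp1, on the same strand, GENCODE lists the unverified gene Gm42793, which took up to 22.8 CPM in the POLE4 libraries (CPM, a gene's reads relative to the library's TMM-scaled reads in all genes), so reads of Spp1 may be split.

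Sequence upstream of the start site was given for 6 of the 10 members by the RefSeq promoter table (GRCm38.p6). The 250 bases before the start are shown for 3 members that were low in the same clones (Col1a2, Col3a1, Serpinh1) and for 1 that was not (Spp1), 5′ to 3′ on the gene's own strand. Capitals mark 3 core promoter motifs searched on both strands: TATAAA (the TATA box), then CCAAT (the CCAAT box) and finally GGGCGG (the GC box).

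Col1a2, chr6:4505368-4505617, plus strand: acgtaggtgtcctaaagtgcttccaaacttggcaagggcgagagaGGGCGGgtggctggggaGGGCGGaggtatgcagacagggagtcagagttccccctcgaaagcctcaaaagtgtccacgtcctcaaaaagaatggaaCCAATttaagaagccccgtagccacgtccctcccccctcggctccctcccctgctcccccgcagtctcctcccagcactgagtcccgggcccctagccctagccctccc

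Col3a1, chr1:45311288-45311537, plus strand: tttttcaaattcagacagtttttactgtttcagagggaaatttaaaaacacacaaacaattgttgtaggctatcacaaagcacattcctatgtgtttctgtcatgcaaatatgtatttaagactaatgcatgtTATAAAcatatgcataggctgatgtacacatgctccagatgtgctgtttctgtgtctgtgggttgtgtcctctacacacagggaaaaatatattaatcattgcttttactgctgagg

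Serpinh1, chr7:99353240-99353489, minus strand: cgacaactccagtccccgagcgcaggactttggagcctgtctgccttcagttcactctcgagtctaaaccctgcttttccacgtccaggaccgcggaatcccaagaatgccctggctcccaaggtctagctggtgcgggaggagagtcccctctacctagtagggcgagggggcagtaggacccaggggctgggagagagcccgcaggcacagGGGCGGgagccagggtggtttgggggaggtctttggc

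Spp1, chr5:104434861-104435110, plus strand: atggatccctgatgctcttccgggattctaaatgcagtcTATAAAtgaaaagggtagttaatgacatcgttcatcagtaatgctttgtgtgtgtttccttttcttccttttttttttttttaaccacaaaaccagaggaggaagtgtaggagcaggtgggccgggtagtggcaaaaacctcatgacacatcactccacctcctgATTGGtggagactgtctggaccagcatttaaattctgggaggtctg

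The Col1a2 window holds CCAAT 109 bases before the start and GGGCGG at 205 and 188 bases, the Col3a1 window TATAAA at 117 bases, and the Serpinh1 window GGGCGG at 37 bases. GENCODE starts Col1a2 further upstream, at 6:4504814, so this window lies inside the GENCODE gene and its distances hold for the RefSeq start only. In the Spp1 window TATAAA stands at 211 bases and CCAAT, on the opposite strand, at 46 bases. The Col5a1 window, not shown, has GGGCGG at 73 bases and, on the opposite strand, at 205 bases, and the Col6a3 window has none of the 3. Of 32851 such windows, 12.4% hold TATAAA, 33.8% CCAAT and 32.7% GGGCGG. No motif of the 3 is common to the Col1a2, Col3a1 and Serpinh1 windows.

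Libraries held 17500744 to 25659666 reads in genes in the POLE4 experiment, 21882680 to 33779889 in the rescue experiment and 26723456 to 64068260 in the clone experiment. Pole4 had 56.2 to 61.3 CPM in WT#1 and 2.87 to 8.35 CPM in the 9 POLE4-KO libraries. The MCM2 mutation itself cannot be seen in counts. Mcm2 was lower in MCM2-2A#2 (218 to 233 CPM) and in MCM2-R#2 (205 to 218 CPM) than in WT#1 (397 CPM or more), and among the WT clones WT#6 (219 CPM) and WT#8 (227 CPM) were within the range of the MCM2-2A clones (169 to 267 CPM). Markers of the labelled cell type were high, with 10 pluripotency markers summing to 2650 CPM or more in every library of the POLE4 experiment, culture of the rescue experiment and clone-by-batch unit.

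In the POLE4 experiment, type I, III and V collagen transcripts were lowest in POLE4-KO#1 and between it and WT#1 in POLE4-KO#2. In POLE4-KO#3 Col1a1 was close to WT#1, Col1a2 and Col3a1 were somewhat lower and the type V chains were higher. Col1a1, the main chain of type I collagen, had 64, 59.3 and 62.6 CPM in the WT#1 libraries and 62.7, 65.8 and 53.2 CPM in POLE4-KO#3. It had 1.02, 0.884 and 1.28 CPM in POLE4-KO#1 and 3.77, 3.13 and 4.26 CPM in POLE4-KO#2. The libraries of POLE4-KO#1 and POLE4-KO#2 thus did not overlap with each other or with those of the other lines, whereas POLE4-KO#3 and WT#1 overlapped. Relative to WT#1, Col1a1 was 57.5-fold lower in POLE4-KO#1 (log2 difference −5.85, SE 0.14) and 16.6-fold lower in POLE4-KO#2 (−4.06, SE 0.12), against −0.03 (SE 0.10) in POLE4-KO#3.

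**Figure D1:**
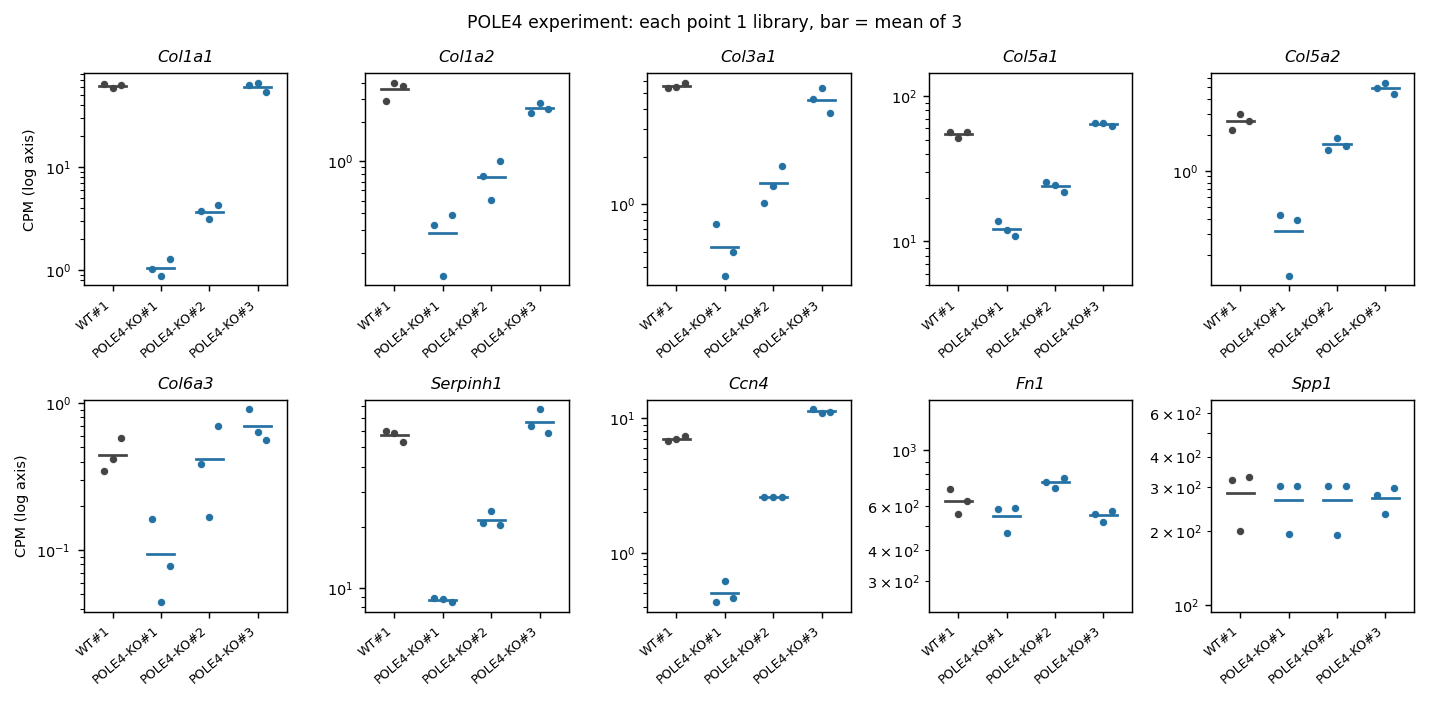
Level of the 10 members (CPM, log axis) in WT#1 and the 3 POLE4-KO clones. Each point is 1 library and the bar is the mean of 3. In 7 panels all POLE4-KO#1 points lie under all POLE4-KO#2 points, which lie under those of WT#1 and POLE4-KO#3; Col6a3, Fn1 and Spp1 do not have that order.

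The other fibrillar chains had the same order of clones at lower amplitude. Col1a2, the partner of Col1a1 in type I collagen, had 2.89, 3.98 and 3.76 CPM in WT#1, 0.323, 0.133 and 0.387 CPM in POLE4-KO#1 (6, 3 and 10 reads), 0.774, 0.508 and 1 CPM in POLE4-KO#2 and 2.36, 2.78 and 2.52 CPM in POLE4-KO#3. Col3a1, the single chain of type III collagen, had 5.44, 5.46 and 5.83 CPM in WT#1, 0.755, 0.354 and 0.503 CPM in POLE4-KO#1, 1.02, 1.31 and 1.74 CPM in POLE4-KO#2 and 4.6, 5.38 and 3.74 CPM in POLE4-KO#3. For both genes the 3 libraries of POLE4-KO#3 were below all 3 of WT#1, by a log2 difference of −0.47 (SE 0.23) for Col1a2 and −0.29 (SE 0.19) for Col3a1, far less than the −3.63 (SE 0.31) and −3.40 (SE 0.25) of POLE4-KO#1.

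Col5a1 and Col5a2, the chains of the fibril-starting type V collagen, differed in how far they went. Col5a1 had 54.9 ± 2.85 CPM in WT#1 (mean ± SD, n = 3), which per kilobase of exon was 6.47 beside 9.45 for Col1a1. It had 12.3 ± 1.47 CPM in POLE4-KO#1 and 24.1 ± 1.96 CPM in POLE4-KO#2. Col5a2 had 2.6 ± 0.396 CPM in WT#1, 0.317 ± 0.161 CPM in POLE4-KO#1 and 1.67 ± 0.209 CPM in POLE4-KO#2. In POLE4-KO#3 Col5a2 reached 4.90 ± 0.53 CPM, 1.87-fold the level of WT#1 (log2 difference 0.90, SE 0.20) with no overlap of libraries, and Col5a1 64.5 ± 1.82 CPM (0.23, SE 0.08). The low POLE4-KO clones and the POLE4-KO#3 clone thus lay on opposite sides of WT#1 for both type V chains.

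Serpinh1, whose product accompanies procollagen in the endoplasmic reticulum, was low in the same libraries. It had 59.9, 58.7 and 52.7 CPM in WT#1, 8.89, 8.8 and 8.5 CPM in POLE4-KO#1, 21, 24.1 and 20.4 CPM in POLE4-KO#2 and 63.8, 77 and 58.4 CPM in POLE4-KO#3. The 3 libraries of POLE4-KO#1 were close to each other (SD 0.203 CPM) and 6.54-fold below WT#1 (log2 difference −2.71, SE 0.11). Ccn4, a WNT-induced matricellular protein also called WISP1, had 6.81, 7.06 and 7.38 CPM in WT#1, 0.431, 0.619 and 0.464 CPM in POLE4-KO#1, 2.61, 2.62 and 2.61 CPM in POLE4-KO#2 and 11.7, 11 and 11.2 CPM in POLE4-KO#3. Each clone occupied its own range for Ccn4, from 13.8-fold lower (POLE4-KO#1) to 1.60-fold higher (POLE4-KO#3) than WT#1.

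Fibronectin and osteopontin transcripts did not have this order. Per kilobase of exon Spp1 (173 CPM per kb) and Fn1 (53.6) were the most abundant members in WT#1. Fn1, the fibril scaffold, had 700, 556 and 624 CPM in WT#1, 584, 465 and 590 CPM in POLE4-KO#1, 749, 709 and 775 CPM in POLE4-KO#2 and 557, 519 and 573 CPM in POLE4-KO#3. POLE4-KO#2 stood above the other lines, by a log2 difference of 0.25 (SE 0.10) over WT#1, and the other clones overlapped with WT#1. Spp1, a secreted phosphoprotein of bone and epithelia, had 193 to 332 CPM over all 12 libraries. The library numbered 2 was the lowest of each POLE4-KO clone (194, 193 and 235 CPM), and 1 WT#1 library had 200 CPM while the other two had 323 and 332 CPM, so the spread of Spp1 within lines exceeded every difference between lines (log2 differences −0.09, −0.10 and −0.07, SE 0.20 each). Col6a3 was barely detected, with 7, 11 and 12 reads in WT#1, 3, 1 and 2 reads in POLE4-KO#1, 8, 4 and 16 reads in POLE4-KO#2 and 15, 14 and 15 reads in POLE4-KO#3. A difference for Col6a3 rests on these counts, and only the POLE4-KO#1 libraries (0.0442 to 0.162 CPM) were below all of WT#1 (0.343 to 0.579 CPM).

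By the limits used for all genes (edgeR adjusted p below 0.01 and an absolute log2 difference above 0.58), 7 members were lower in POLE4-KO#1 than in WT#1, where 7.81% of 16864 genes tested were lower, 6 were lower in POLE4-KO#2, where 6.32% were lower, and 2 (Ccn4 and Col5a2) were higher in POLE4-KO#3, where 2.56% were higher. Libraries did not overlap with those of WT#1 for 8 members in POLE4-KO#1 (40.6% of genes), 8 in POLE4-KO#2 (41.3%) and 5 in POLE4-KO#3 (34.1%). The 3 comparisons share the WT#1 libraries. Without any 1 of 8 libraries, Col5a2 missed the limits in POLE4-KO#3 and 1 member was left. Between knockout clones, in comparisons that use no WT#1 library but share knockout libraries with each other, 6 members were lower in POLE4-KO#1 than in POLE4-KO#2 (6.14% of genes were lower), 8 lower in POLE4-KO#1 than in POLE4-KO#3 (12.4%) and 7 lower in POLE4-KO#2 than in POLE4-KO#3 (7.88%). The mean of the 3 knockout clones gave 7 lower members (3.53% of genes), although 4 of these had a positive log2 difference in POLE4-KO#3 (Col5a1, Col5a2, Serpinh1 and Ccn4). The median log2 difference of the members was −2.87 in POLE4-KO#1, −1.29 in POLE4-KO#2 and 0.09 in POLE4-KO#3, beside 0.008, 0 and 0 for all genes.

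The proportion of the chains to each other also differed. Per kilobase of merged exons, the Col1a1 level was 31.5 times that of Col1a2 in WT#1 (median of 3 libraries, range 28.2 to 41.9) and 44.7 times in POLE4-KO#3 (40 to 50.3). In POLE4-KO#1 it was 6.25 times (6 to 12.6) and in POLE4-KO#2 9.23 times (8.07 to 11.7). Col1a1 was thus in excess in every library of this experiment, and by less in POLE4-KO#1 and POLE4-KO#2. The type I ratio of POLE4-KO#1 rests on 6, 3 and 10 reads of Col1a2, so its size is uncertain. The Col5a1 level per kilobase was 24.6 times that of Col5a2 in WT#1 (19.5 to 28.9), 36.3 times in POLE4-KO#1 (32 to 102), 15.4 times in POLE4-KO#2 (14.5 to 19.4) and 15.1 times in POLE4-KO#3 (13.6 to 16.1). The type V ratio of POLE4-KO#1 rests on 8, 3 and 10 reads of Col5a2, so its size is uncertain too. Type V chains still did not repeat the type I pattern. In POLE4-KO#3 the type V ratio was below that of WT#1, while the median type I ratio was above it. Exon lengths include every annotated transcript, which sets the size of these ratios but not their order.

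Other genes of collagen production and matrix, which are not members, were tested across all genes. Of 131 such genes on 8 lists, 115 could be tested, and in POLE4-KO#1 41 were lower and 1 higher than in WT#1. In POLE4-KO#2 29 were lower and 4 higher, and in POLE4-KO#3 none were lower and 10 higher, beside the 11.5%, 11.3% and 2.98% of all genes called in these comparisons. Compared directly, POLE4-KO#1 had 18 lower and 5 higher than POLE4-KO#2 (9.93% of all genes called) and 54 lower and 3 higher than POLE4-KO#3 (16.5%), and POLE4-KO#2 had 42 lower and 1 higher than POLE4-KO#3 (10.2%). The lists were drawn up with earlier results known, and no list was tested as a set.

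Procollagen processing and crosslinking had 5 lower and 1 higher of 13 tested genes in POLE4-KO#1 and 6 lower in POLE4-KO#2. Lox, a lysyl oxidase that crosslinks collagen, fell by 4.1 on the log2 scale (SE 0.48, edgeR adjusted p = 8.9e-06) in POLE4-KO#1 and by 3.19 (SE 0.42, adjusted p = 4.1e-05) in POLE4-KO#2. Loxl4 fell by 3.74 (SE 0.26, adjusted p = 3.2e-08) and by 1.96 (SE 0.22, adjusted p = 6.5e-06), and Bmp1, the proteinase that clips the C-terminal propeptide, by 2.08 (SE 0.14, adjusted p = 2.3e-08) and by 1.21 (SE 0.13, adjusted p = 6.6e-06). The gene that rose in POLE4-KO#1 was Adamts14, a procollagen N-proteinase (log2 difference 0.97, SE 0.15, adjusted p = 0.00019). In POLE4-KO#3 Bmp1 rose by 0.58 (SE 0.12, adjusted p = 0.0063) and no gene of the list fell.

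Of the steps inside the cell, modification and folding had 5 lower of 16 tested genes in POLE4-KO#1 and 3 in POLE4-KO#2. They included the prolyl 3-hydroxylase family members P3h2 (−2.42, SE 0.41, edgeR adjusted p = 0.00038) and P3h4 (−1.20, SE 0.22, adjusted p = 6e-04) in POLE4-KO#1, and Fkbp10 (−1.07, SE 0.09, adjusted p = 6e-07) and P3h4 (−1.95, SE 0.23, adjusted p = 1.1e-05) in POLE4-KO#2. Procollagen export, the COPII and TANGO1 route, had 2 lower of 14 tested genes in POLE4-KO#1 and none in the other clones. These were Creb3l1 (−1.08, SE 0.13, edgeR adjusted p = 1.2e-05) and Creb3l2 (−0.96, SE 0.15, adjusted p = 0.00021), transcription factors rather than parts of the coat. The median log2 difference of the export list was 0.03 in POLE4-KO#1, beside −1.01 for processing and crosslinking.

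**Figure D2:**
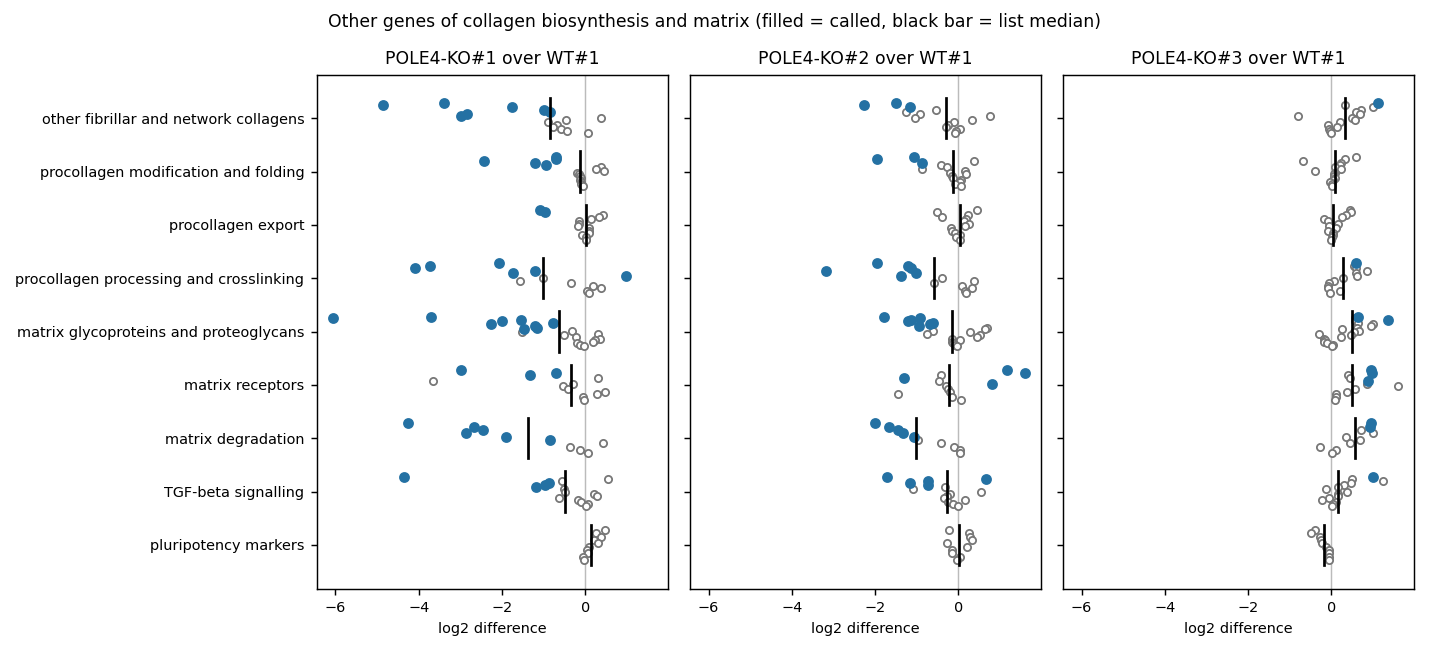
Log2 difference of each POLE4-KO clone over WT#1 for 8 lists of collagen and matrix genes and for pluripotency markers. Each point is 1 gene, filled where called, and the black bar is the list median; called genes lie left of 0 in POLE4-KO#1 and POLE4-KO#2 with few exceptions and right of 0 in POLE4-KO#3.

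Among collagens outside the member list, 7 of 15 tested genes were lower in POLE4-KO#1 and 3 in POLE4-KO#2, among them Col12a1, which binds along type I fibrils (−3.39, SE 0.31, edgeR adjusted p = 6.8e-07, and −1.49, SE 0.25, adjusted p = 0.00033). Col8a1, a short-chain collagen, had 1.01 ± 0.159 CPM in WT#1, 0.207 ± 0.0125 CPM in POLE4-KO#2 (adjusted p = 8e-04) and 0.0276 ± 0.0241 CPM in POLE4-KO#1 (adjusted p = 1.6e-05), too few reads for a fold. Col12a1 was higher in POLE4-KO#3 (1.11, SE 0.21, adjusted p = 0.0028). Matrix glycoproteins and proteoglycans had 9 lower of 20 tested in POLE4-KO#1. Thbs1, an adhesive glycoprotein, had the smallest adjusted p and went from 148 ± 18.9 to 11.3 ± 2.21 CPM (n = 3 each; −3.70, SE 0.18, adjusted p = 5.7e-10). Tnc, which encodes tenascin C, was also called (adjusted p = 4.8e-08), with a larger fitted difference but too few reads in POLE4-KO#1 for a fold. Matrix degradation had 6 lower of 10 tested in POLE4-KO#1.

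Matrix receptors were mixed. The hyaluronan receptor Cd44 fell in POLE4-KO#1 (−2.99, SE 0.30, edgeR adjusted p = 1.6e-06) and POLE4-KO#2 (−1.31, SE 0.24, adjusted p = 0.00084). The collagen receptor Ddr2 fell in POLE4-KO#1 (−1.32, SE 0.24, adjusted p = 0.00077) and rose in POLE4-KO#2 (1.61, SE 0.21, adjusted p = 3.1e-05), and the proteoglycan Sdc4 rose in POLE4-KO#2 (1.17, SE 0.14, adjusted p = 2e-05) and POLE4-KO#3 (0.98, SE 0.14, adjusted p = 0.00043). In TGF-beta signalling, the pathway best known for raising collagen transcription, the ligand Tgfb2 fell from 10.9 ± 0.481 CPM in WT#1 to 0.527 ± 0.0575 CPM in POLE4-KO#1 (−4.36, SE 0.24, adjusted p = 2.4e-09) and to 3.28 ± 1.14 CPM in POLE4-KO#2 (−1.72, SE 0.18, adjusted p = 4.7e-06). Of 15 tested genes of that list, 4 were lower in each of these clones, and Smad3, a signal transducer of the pathway, rose in POLE4-KO#2 (0.67, SE 0.10, adjusted p = 8.7e-05).

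Of the marker lists of other cell types, the fibroblast list was low in the same clones, POLE4-KO#1 and POLE4-KO#2. Their sums overlapped, and none of 10 tested markers was called between these clones. The 12 fibroblast markers summed to 133 to 176 CPM in WT#1, 25.7 to 39.8 CPM in POLE4-KO#1, 36.8 to 51.7 CPM in POLE4-KO#2 and 143 to 218 CPM in POLE4-KO#3. Most of that sum was Tagln and Acta2, actin cytoskeleton genes of contractile cells. Acta2 had 41.8 ± 7.92 CPM in WT#1 and 1.52 ± 0.243 CPM in POLE4-KO#1 (−4.75, SE 0.29, edgeR adjusted p = 6.1e-09), and Tagln fell by 2.26 (SE 0.19, adjusted p = 2.9e-07). In all, 5 of the 10 fibroblast markers that could be tested were lower in POLE4-KO#1, 3 in POLE4-KO#2 and none in POLE4-KO#3. The 5 not called in POLE4-KO#1 were Tbx15 (−0.88, SE 0.39), Pdgfrb (−0.12, SE 0.23), Twist1 (0, SE 0.28), Snai2 (0.14, SE 0.35) and Meox1 (0.91, SE 0.31). The fibroblast transcription factor Prrx1 was too low to be tested, at 0 in POLE4-KO#1 and at 0.143 CPM in WT#1. The bone markers Bglap, Ibsp and Dmp1 were each at 0 in POLE4-KO#1 and at most 0.0161 CPM in WT#1, and the osteoblast sum (55.1 to 107 CPM over all libraries) was mostly Alpl, which ESCs also express.

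The 10 pluripotency markers summed to 3670 to 4240 CPM in WT#1, 4170 to 4700 CPM in POLE4-KO#1, 3460 to 4460 CPM in POLE4-KO#2 and 3300 to 3690 CPM in POLE4-KO#3, and edgeR called none of them in any clone over WT#1 (4, 4 and 3 had an unadjusted p under 0.05). In POLE4-KO#1 against POLE4-KO#3, 3 of 10 were called, where 16.5% of all genes were called. All 3 were higher in POLE4-KO#1: Fgf4 (0.61, SE 0.09), Sox2 (0.62, SE 0.10) and Esrrb (0.62, SE 0.12). The 12 primitive and parietal endoderm markers summed to 174 to 188 CPM in WT#1, 97.2 to 119 CPM in POLE4-KO#1, 224 to 277 CPM in POLE4-KO#2 and 211 to 226 CPM in POLE4-KO#3, an order of clones unlike that of the collagens. In bulk RNA, fewer cells of a type and less RNA per cell cannot be told apart, and the part of these markers in the collagen differences was not tested.

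In the clone experiment, clones labelled WT differed widely in Col1a1. Col1a1 had 37.8 and 54.3 CPM in the August libraries of WT#1 and 55.7 and 71 CPM in WT#4, 10.2 and 18.8 CPM in WT#2, but 2.61 and 4.19 CPM in WT#3, 2.14 and 3.83 CPM in WT#7, 1.45 and 2.99 CPM in WT#8 and 1.04 and 0.462 CPM in WT#6. Among the MCM2-2A clones of August, MCM2-2A#5 had 45.7 and 52 CPM and the other 4 had 1.75 to 5.11 CPM. MCM2-2A#1, sequenced in January and in March, had 46.6 to 77.5 CPM over 6 libraries, MCM2-2A#2 in January 18.7, 24.2 and 55.2 CPM and MCM2-2A#3 in March 2.31, 2.46 and 2.51 CPM. High and low clones thus occurred in both genotypes, and March alone held a high WT#1 (30.9 to 50.4 CPM), a high MCM2-2A#1 and a low MCM2-2A#3. Without WT#6 and WT#8, whose Mcm2 level was within the MCM2-2A range, the low clones labelled WT were WT#3 and WT#7.

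**Figure D3:**
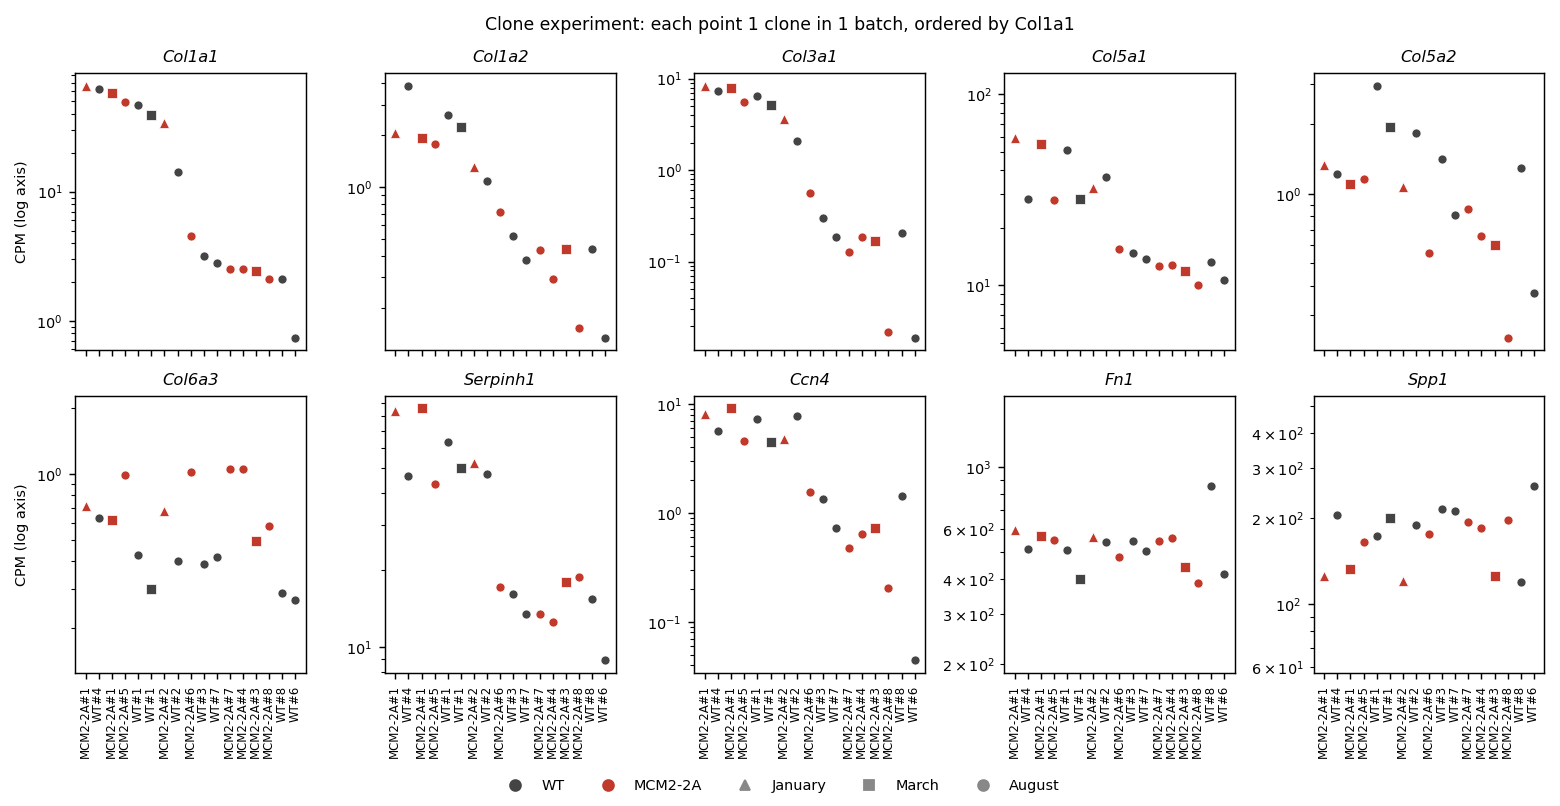
Level of the 10 members (CPM, log axis) in 17 clone-by-batch units, ordered from left to right by Col1a1 in every panel. Colour gives the genotype and the symbol the batch; Col1a1, Col1a2, Col3a1, Col5a1, Serpinh1 and Ccn4 step down after the eighth unit, while Fn1 and Spp1 do not, and Col6a3 separates mostly by colour.

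The same units were high for most members. Ordered by level, the 8 units with the most Col1a1 (4 WT and 4 MCM2-2A) were also the 8 highest for Col1a2, Col3a1, Col5a1, Serpinh1 and Ccn4. The step between the eighth and the ninth unit was 3.1-fold for Col1a1 (14.2 and 4.56 CPM), 3.68-fold for Col3a1 (2.07 and 0.564 CPM), 2.9-fold for Ccn4, 2.32-fold for Serpinh1, 1.8-fold for Col5a1 and 1.52-fold for Col1a2. For Col5a2 6 of the 8 units were shared, for Col6a3 5, for Fn1 4 and for Spp1 3, and their steps were 1.06-fold or less. WT#6 was the lowest unit for 6 members. It held 1 read of Col3a1 and 3 reads of Ccn4 in its summed libraries, so no fold is given for it.

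Fn1 ran from 387 CPM (MCM2-2A#8) to 857 CPM (WT#8), a narrow range beside that of the collagens. WT#8 stood apart from the other WT units, the next of which had 543 CPM, and the same clone had the least Spp1 (119 CPM). Spp1 had 119 to 260 CPM in WT units, with WT#6 the highest, and 120 to 198 CPM in MCM2-2A units. The clone with the least Col1a1, WT#6, was thus the one with the most Spp1.

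**Figure D4:**
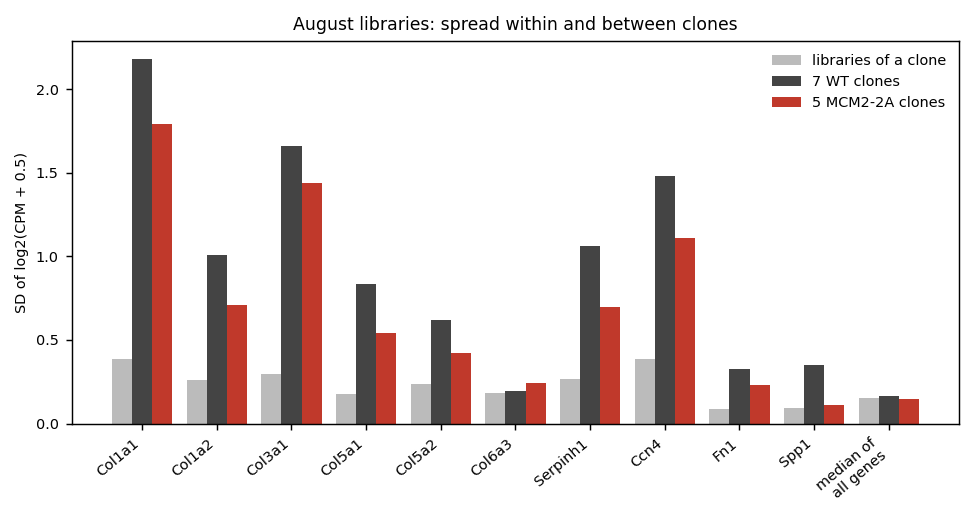
Standard deviation of log2(CPM + 0.5) in the August libraries between libraries of a clone (grey), between 7 WT clones (dark) and between 5 MCM2-2A clones (red), for each member and as the median of 23265 genes. For Col1a1 the bars are 0.388, 2.18 and 1.79, against medians of 0.151, 0.165 and 0.147.

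For Col1a1, Col3a1 and Ccn4, spread between clones was far larger than between libraries of a clone. Over the 7 WT clones of August the SD of log2(CPM + 0.5) was 2.18 for Col1a1, rank 1 of 23265 genes, and over the 5 MCM2-2A clones it was 1.79, rank 2. Col3a1 had rank 13 among WT clones (1.66) and rank 10 among MCM2-2A clones (1.44), and Ccn4 had SDs of 1.48 and 1.11. The SD between libraries of a clone was 0.388 for Col1a1, 0.294 for Col3a1 and 0.386 for Ccn4. Over the MCM2-2A clones the SD was closer to that between libraries for Spp1 (0.111 and 0.0941) and Col5a2 (0.424 and 0.237). Col6a3 had SDs of 0.192 and 0.243 between clones and 0.184 between libraries of a clone. Its levels are about as low as the offset of 0.5, which compresses these SDs. In WT#6 Col1a2 (0.134 CPM), Col3a1 (0.0148 CPM), Col5a2 (0.371 CPM) and Ccn4 (0.0445 CPM) were below the offset too. Their SDs are thus also compressed, and SDs and ranks are not strictly comparable between members. These SDs describe the clones at hand and were not tested.

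Between genotypes, Col1a1 overlapped widely. In the 9 MCM2-2A units Col1a1 had 24.7 ± 27.3 CPM (mean ± SD, median 4.56) and in the 8 WT units 21.4 ± 24.4 CPM (median 8.66). The log2 difference, fitted with batch as a covariate, was −0.58 with an SE of 0.99. January held only MCM2-2A units, which enter the means but add nothing to this difference. Means and fitted differences can therefore have opposite directions. Col1a2 (−0.93, SE 0.66), Col3a1 (−0.77, SE 1.13), Col5a1 (−0.46, SE 0.41), Serpinh1 (−0.42, SE 0.47) and Ccn4 (−0.97, SE 0.85) likewise had differences of the order of their SE. Col5a2 had the largest negative difference (−1.06, SE 0.37) and was not called. No member had non-overlapping units between the genotypes, which 1.03% of genes had. WT#1 (March and August) and MCM2-2A#1 (January and March) each enter as separate units, so not all units are independent clones. The 1 member called was Col6a3, with 0.801 ± 0.225 CPM in MCM2-2A and 0.391 ± 0.116 CPM in WT units (1.15, SE 0.19), where 0.628% of 23265 genes were called higher. It missed the limits without WT#1, without MCM2-2A#4, without MCM2-2A#7 and in the August clones alone (log2 difference 1.21), and it was called without both WT#6 and WT#8 (1.00). Of 125 other matrix genes tested, 1 was called (0.679% of all genes in either direction), the elastin gene Eln (0.84, SE 0.16, edgeR adjusted p = 0.0089).

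Endoderm markers differed between the genotypes in the same comparison, with 3 of 12 called higher in MCM2-2A clones, Gata6 (1.69, SE 0.24, edgeR adjusted p = 0.0012), Pdgfra (1.20, SE 0.20, adjusted p = 0.0038) and Sox17 (1.24, SE 0.23, adjusted p = 0.0083). The 12 markers summed to 111 to 410 CPM over all units, and their part in the Col6a3 difference was not tested. The summed fibroblast markers were high in the units with high Col1a1, in both genotypes. The sum was 170 and 136 CPM in WT#1, 109 CPM in WT#4, 181 CPM in WT#2 and 92.6 to 216 CPM in MCM2-2A#1, MCM2-2A#2 and MCM2-2A#5. It was 12 CPM in WT#6 and 16.4 to 47 CPM in the other clones. Among the high units it did not follow Col1a1 (14.2 CPM in WT#2, 62.5 CPM in WT#4). In the POLE4 experiment most of this sum was Tagln and Acta2. Of 11 markers tested between the genotypes none was called, and their differences had both signs (Tagln −1.74, SE 0.89, and Meox1 0.89, SE 0.26). Of the 12 markers, 3 were at 0 in WT#6 and at most 2 in any other unit.

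Genes outside the list had nearly the same pattern. Likeness was measured as Pearson's r of log2 CPM with the mean standardised level of the 5 fibrillar chains. Over the 17 clone-by-batch units, after centring each batch, the most alike were Aif1l (r = 0.989), Dap (0.982), Tgfb2 (0.981), Mapk8ip2 (0.980) and Cacna1g (0.976). Over the 12 POLE4 libraries they were Jade2, Wls and Reep5 (0.991 each), and Has2 and Vat1 (0.989 each). In the other experiment Vat1 (0.664 over clones) and Dap (0.837 over POLE4 libraries) were less alike, and the other 8 had an r of 0.924 or more. Units of a line share their clone and the levels fall into separate ranges, so each r describes mainly which clones were high.

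Tgfb2 gave the clearest example, with 11.1 CPM in WT#1 (August), 6.8 CPM in WT#4 and 13.7 and 14.2 CPM in MCM2-2A#1, but 0.341 CPM in WT#6, 0.307 CPM in MCM2-2A#8 and 0.822 CPM in MCM2-2A#3. Has2, a hyaluronan synthase, had 15.6 CPM in WT#1 (August) and 0.534 CPM in WT#6, and Wls, the carrier that WNT proteins need for secretion, 24.8 and 1.91 CPM. Among members, Col6a3 had an r of 0.845 over the POLE4 libraries and 0.064 over the clones, and Fn1 and Spp1 had values between −0.1 and 0.268 in both.

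In the rescue experiment Col1a1 varied more between cultures of a line than between lines. It had 78.3, 31.5, 64.4 and 67.6 CPM in WT#1, 53.6, 25.3, 38.8 and 50.6 CPM in MCM2-2A#2 and 35.4, 42.1, 144 and 121 CPM in MCM2-R#2. Taken by culture number, MCM2-2A#2 was below WT#1 in every pair, and culture 2 was the lowest of both lines. MCM2-R#2 did not have that order of cultures. Cultures 3 and 4 of MCM2-R#2 were above every other culture and cultures 1 and 2 within the range of the other lines. Col3a1 had 1.3, 1.89, 7.01 and 5.22 CPM in MCM2-R#2, with 1.02 to 2.91 CPM in WT#1 and 0.704 to 2.04 CPM in MCM2-2A#2, and Ccn4 had 3.44, 4.64, 12.4 and 7.69 CPM in MCM2-R#2. Col5a2 had 1.41 to 2.42 CPM in MCM2-R#2, above all cultures of MCM2-2A#2 (0.76 to 1.17 CPM) and overlapping WT#1 (0.798 to 1.79 CPM). The fibroblast marker sum was 111 to 165 CPM in MCM2-R#2, 74.1 to 124 CPM in WT#1 and 43.8 to 85.2 CPM in MCM2-2A#2, and its part was not tested.

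**Figure D5:**
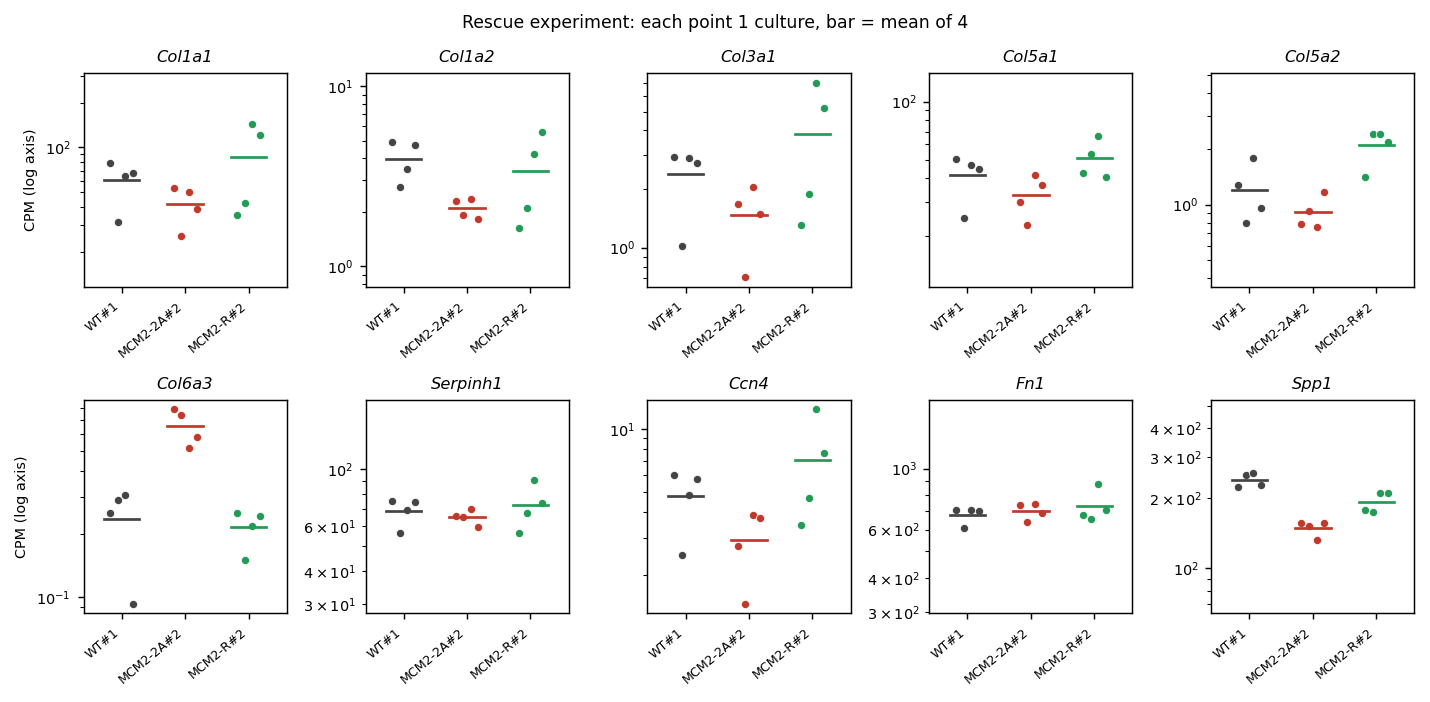
Level of the 10 members (CPM, log axis) in WT#1, MCM2-2A#2 and MCM2-R#2. Each point is 1 culture and the bar is the mean of 4; MCM2-R#2 splits into low and high cultures for Col1a1 and Col3a1, Spp1 is lowest in MCM2-2A#2 and Col6a3 highest there.

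Spp1 and Col6a3 differed between MCM2-2A#2 and WT#1 by the limits used, where 2.76% of 17098 genes did. Spp1 had 156, 152, 156 and 132 CPM in MCM2-2A#2 against 223, 251, 257 and 228 CPM in WT#1 (log2 difference −0.69, SE 0.08), and MCM2-R#2 was between them with 178, 174, 210 and 211 CPM. Col6a3 had 0.79, 0.742, 0.583 and 0.518 CPM (13 to 30 reads) in MCM2-2A#2, 0.0933 to 0.307 CPM (3 to 18 reads) in WT#1 and 0.15 to 0.254 CPM (5 to 7 reads) in MCM2-R#2. Neither gene overlapped between MCM2-2A#2 and WT#1, nor did Col1a2, which was lower (−0.88, SE 0.31), and 18.9% of all genes did not overlap. The Col6a3 call was lost without any 1 of the 8 cultures of WT#1 and MCM2-2A#2, without MCM2-R#2 culture 1 or 4, and in the first sequencing run of each culture, leaving 1 member, while Spp1 was called in all of these.

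MCM2-R#2 over WT#1 had no called member in edgeR or in DESeq2, at 0.298% of genes called, and 2 members had an unadjusted p under 0.05. MCM2-R#2 over MCM2-2A#2 had 1 (Col6a3, −1.58, SE 0.32), where 0.901% of genes were lower and 1.37% called in either direction, and this comparison depended on the fit: DESeq2 called Col5a2 in its place, and with no filter on low counts 6 members were called, with Col1a1, Col3a1, Col5a1, Col5a2 and Ccn4 higher in MCM2-R#2 beside the lower Col6a3. Without any 1 of 8 of the 12 cultures no member was called. Of 117 other matrix genes tested, 6 were higher in MCM2-2A#2 than in WT#1 and none lower, among them Ddr2 (1.33, SE 0.15, edgeR adjusted p = 8.4e-05), Sdc4 (0.85, SE 0.15, adjusted p = 0.0021), Plod2, a lysyl hydroxylase of procollagen (0.64, SE 0.09, adjusted p = 0.00064), P4ha2, a prolyl hydroxylase (0.73, SE 0.14, adjusted p = 0.0038), and Col15a1 (1.32, SE 0.26, adjusted p = 0.0043). In that comparison 8 of 12 endoderm markers were higher, among them Gata6 (2.29, SE 0.19, adjusted p = 4.3e-06) and Gata4 (1.44, SE 0.13, adjusted p = 1.3e-05), with a summed level of 220 to 235 CPM against 162 to 183 CPM in WT#1, and its part in these differences was not tested.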

How the data were processed

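Total RNA-seq of 65 libraries was analysed (3 columns of the tables matched no sample and WT#5 was not analysed here). The authors deposited raw read counts per gene and repeat, which per the submitters' processing notes came from Trimmomatic 0.39, STAR 2.7.1a and featureCounts on mm10. CPM were computed here from the sum of gene rows times its TMM factor.

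Genes and repeats were fitted together within each table by the quasi-likelihood test of edgeR 4.0.16 (R 4.3.3) after filterByExpr (minimum count 10, total 15), with p-values adjusted by Benjamini-Hochberg over genes. Calls needed both an adjusted p under 0.01 and a log2 difference beyond 0.58 in size. Each SE is the size of the log2 difference divided by the square root of the F statistic of that test. It is thus an approximate standard error and was not fitted separately. Repeat runs of a culture and libraries of a clone in a batch were summed, and batch (January, March, August, from the study's sample table) was a covariate for clones. Tables were normalised separately, so levels are compared within tables. Replicates of a line measure only the spread of its libraries. Named list genes were called genes, at most 4 per list and comparison by smallest adjusted p, with the 2 highest genes of marker lists and the 5 genes most alike in pattern per experiment. Any other gene named was chosen after its values were seen. Members and lists were chosen with earlier results of these data known. Knockout libraries of the same number deviated together (9 of 9 pairs, r 0.333 to 0.645, against 0 of 18 pairs of different numbers), so numbers pair the knockout clones. Alternatives included DESeq2 1.42.0. The fits were tested on simulated data. Some genes of the lists are not reported here.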

Additional observations from a re-analysis of the deposited data

Results flagged for a closer look

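In 4 of 50 groups of 4, 8 or 9 samples, 1 sample stood far from the others, where chance gives about 1 in 20. The same sets of samples served for all 10 members, so the groups are not independent. WT#1 culture 2 of the rescue experiment had 1.02 CPM of Col3a1, where the nearest culture had 2.71 CPM, and 606 CPM of Fn1, where the nearest had 703 CPM. WT#4 had 0.63 CPM of Col6a3, where the nearest WT unit had 0.43 CPM, and WT#8 had 857 CPM of Fn1, where the nearest had 543 CPM.

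The knockout clones differed from each other when compared directly. Of 115 other matrix genes, edgeR called 23 between POLE4-KO#1 and POLE4-KO#2, 57 between POLE4-KO#1 and POLE4-KO#3 and 43 between POLE4-KO#2 and POLE4-KO#3.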

How the results depend on the processing

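No member's log2 difference that was called reversed its sign under any alternative. Among other matrix genes, POLE4-KO#3 over WT#1 gave 16 calls by DESeq2, 19 with no filter and 31 at an adjusted p below 0.05 with no fold limit. That limit gave 52 for POLE4-KO#2 over WT#1, 46 for the mean knockout, 54 for POLE4-KO#1 over POLE4-KO#2, 70 for POLE4-KO#2 over POLE4-KO#3, 21 for MCM2-2A#2 over WT#1, 1 for MCM2-R#2 over WT#1, 21 for MCM2-R#2 over MCM2-2A#2 (3 members) and 2 for the clones. DESeq2 gave 1 for MCM2-R#2 over WT#1 and 7 for MCM2-R#2 over MCM2-2A#2, and no filter gave 12 there (6 members) and 0 for the clones. In the clone comparison, August clones alone, with or without WT#1, gave 0 members and 0 other genes, single libraries 2 and 5, and clones other than WT#6 and WT#8 gave 0 other genes. The first sequencing run of each culture left 1 member for MCM2-2A#2 over WT#1 and 0 for MCM2-R#2 over MCM2-2A#2. So did cultures of the first run alone, with 1 other gene in the latter. This choice, August without WT#1 and the clones other than WT#6 and WT#8 were added after seeing the data. The cause was not tested.

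Leaving out 1 library or clone gave 1 to 2 members and 5 to 13 other genes in POLE4-KO#3 over WT#1, 1 to 2 and 3 to 6 in MCM2-2A#2 over WT#1, 0 to 1 and 0 to 5 in MCM2-R#2 over MCM2-2A#2, and 0 to 1 and 0 to 1 in the clones. With the replicate block, which paired the knockout clones, 6, 8 and 7 members were called between them, and no count moved by over 1.5 times. Over the pairs of all rescue lines, 5 of 12 same-number pairs and 10 of 36 others deviated together. Pairs of WT#1 with MCM2-2A#2, whose Col1a1 had the same order of cultures, were not counted apart. The block gave 2 members (Col5a2, Col6a3) for MCM2-R#2 over MCM2-2A#2. Col6a3, with 1 to 30 reads per library or culture in the POLE4 and rescue tables, is limited by depth.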
